A study of Mus musculus with 16 samples.

Results

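Ketone body use and monocarboxylate transport were followed through 6 genes measured on 16 arrays of mouse quadriceps muscle. The members were chosen by name: every probe whose RefSeq accession belongs to Bdh1, Oxct1, Acat1, Slc16a1, Slc16a3 or Bsg was taken, which gave 9 of the 28501 probes kept and 6 of the 21247 genes tested. Male mice aged 8 weeks made up 4 groups of 4 with 1 array per mouse. The first group was mFoxO-TKO mice (mFoxO1,3,4-/-) fasted for 24 h in individual cages, the second mFoxO-TKO mice fed ad libitum, the third WT mice fasted in the same way and the fourth WT mice fed ad libitum. In mFoxO-TKO mice, Cre recombinase driven by the human α-actin (HSA) promoter deleted FoxO1, FoxO3 and FoxO4 in skeletal muscle, so other cells of the muscle keep these genes. Only fasted mice are described as caged singly, so a difference in housing cannot be told apart from fasting.

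Ketone bodies are made in the liver from fatty acids during fasting and are burned in muscle, heart and brain. In muscle mitochondria, Bdh1 (β-hydroxybutyrate dehydrogenase) oxidises β-hydroxybutyrate to acetoacetate, Oxct1 (succinyl-CoA:3-oxoacid CoA transferase) attaches coenzyme A to it, and Acat1 (acetoacetyl-CoA thiolase) splits the product into acetyl-CoA. Ketone bodies, lactate and pyruvate cross the plasma membrane through the same proton-coupled carriers: Slc16a1 (MCT1), known in muscle for uptake into oxidative fibres, and Slc16a3 (MCT4), known for lactate export from glycolytic fibres. Both carriers need Bsg (basigin), a membrane glycoprotein that escorts them to the cell surface.

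Upstream sequence is shown for Bdh1, a member that passed a test, since the deleted genes encode factors that bind forkhead motifs. The window is the 250 bases before the start of the gene in RefSeq (GRCm38.p6, plus strand), and capitals mark the motif found. Motifs searched on both strands were GTAAACA (forkhead core), AAAACAA (a weaker forkhead match), the PPAR response element (by its direct-repeat consensus) and ACGTG (core of the hypoxia-inducible factor site).
Bdh1, chr16:31422047-31422296: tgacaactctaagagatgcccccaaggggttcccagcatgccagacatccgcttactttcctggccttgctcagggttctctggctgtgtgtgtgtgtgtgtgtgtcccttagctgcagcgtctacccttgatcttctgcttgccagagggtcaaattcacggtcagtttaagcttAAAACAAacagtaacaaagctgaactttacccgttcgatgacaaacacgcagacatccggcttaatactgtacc
This window of Bdh1 held AAAACAA once, beginning 74 bases before the start, and no other motif of the 4. The table's second window of Bdh1 and its window of Slc16a3 precede inner starts, 6456 and 583 bases inside these genes, and are not printed. Of 32851 windows of this length in the table, 8.11% held AAAACAA, 16.6% ACGTG, 3.17% GTAAACA and 0.0335% the PPAR response element. Of the other members, Oxct1 and Slc16a1 had windows with ACGTG before the start of the gene. The window of Slc16a3 held ACGTG at 27 and at 14 bases before its inner start, so 3 of the 5 member windows held it. The table was searched by symbol and 4 of the 6 members matched, with 5 windows. A match is a description of the letters and not a measured site.

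The samples were first checked against their labels. Foxo1 was lower in mFoxO-TKO muscle, by 3.40 ± 0.23 in fasted mice (log2, SE, adjusted p = 3.33e-07) and by 1.76 ± 0.23 in fed mice (adjusted p = 0.00116). No mFoxO-TKO array had Foxo4 well above background, so it was at least 6.14-fold lower than WT in fasted mice (adjusted p = 3.33e-07) and at least 6.62-fold lower in fed mice (adjusted p = 1.14e-06). Those bounds set the WT mean against the dimmest measurable signal of the mFoxO-TKO arrays. Foxo3 was dim, and its differences of -0.75 in fasted and 0.74 in fed mice did not pass (adjusted p = 0.0974 and 0.298). The sources used here do not place these probes within or outside the deleted exons. Between 45.0% and 75.2% of spots on an array were well above background. Slide 1 carried replicates 1 and 2 of every group, slide 2 carried the rest, and on each of them a group filled 1 column, so array position and group cannot be told apart. One fasted mFoxO-TKO array (replicate 1) stood apart, at 87.1 on the second principal component where no other array exceeded 29.5, and it had the most spots marked as uneven (3.28%). The defining genes of muscle fibres were present: 8 of 8 were tested, and at least 7 of the 8 were well above background on all arrays of each group. In whole muscle, fewer cells of a type and less RNA per cell cannot be told apart.

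Levels below are log2 signals relative to the 75th percentile of the array, which is 0, and they order groups for 1 probe without comparing genes. A gene passed at a Benjamini-Hochberg adjusted p under 0.05 in a limma model of all 16 arrays. Fasting raised 1 of the 6 members in WT muscle (Bdh1) against 20.8% of all genes called in either direction (11.2% higher and 9.59% lower), and in mFoxO-TKO muscle none of the 6 passed against 8.53% (4.29% higher and 4.24% lower). At an unadjusted p under 0.05 the model gave 3 members in mFoxO-TKO muscle (4711 of the 21247 genes) and 1 in WT muscle (6824 genes). Between genotypes, 1 of the 6 differed in fasted mice (Slc16a3, higher in mFoxO-TKO, against 9.38% of all genes, 4.41% higher and 4.97% lower). In fed mice none of the 6 differed, at the adjusted or the unadjusted threshold, against 1.02% of all genes after adjustment (0.508% higher and 0.513% lower). The difference between the fasting changes of the genotypes passed for none of the 6 (1.15% of all genes, 0.424% higher and 0.725% lower), with 2 at an unadjusted p under 0.05 (2206 genes in all). This model has no term for slide. When slide was added as a block, 4 of the 6 passed for fasting in mFoxO-TKO muscle (13.2% of all genes) and 2 in WT muscle (27.9%). Between genotypes 1 then passed in fasted mice (14.2%) and none in fed mice (1.99%), and the difference between fasting changes passed for 1 (2.65%). All 9 probes were well above background on all 16 arrays, so no member was lost to a filter on dim signals. The median change of the 6 members was 0.38 for fasting in mFoxO-TKO muscle, where the median of all genes was 0.04, and 0.02 for fasting in WT muscle, where the median of all genes was also 0.02.

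**Figure D1:**
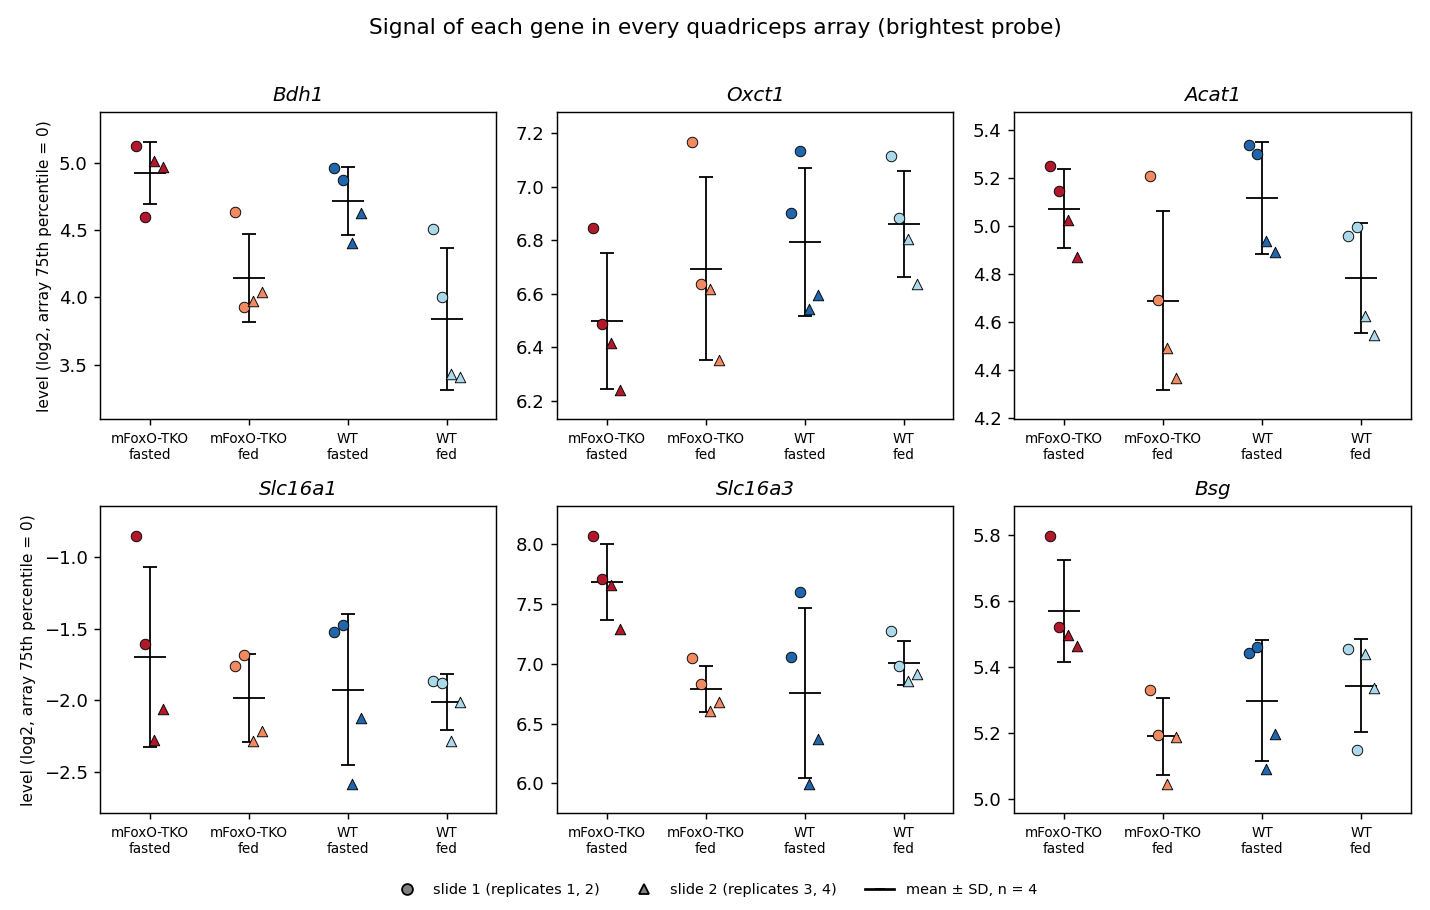
Level of each of the 6 genes (brightest probe, log2 signal relative to the array's 75th percentile) on each of the 16 arrays, with slide 1 as circles, slide 2 as triangles, and the mean ± SD of 4 arrays as black bars. Slc16a3, Bsg, Bdh1 and Slc16a1 had their highest mean in fasted mFoxO-TKO muscle. For Slc16a3, 1 fasted WT array lay inside the range of that group, and for Slc16a1 all groups overlapped. Bdh1 was higher in both fasted groups, with means of 4.93 and 4.72, than in the fed groups, with means of 4.15 and 3.84.

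Bdh1, the enzyme that opens ketone body oxidation, was the member that fasting raised in WT muscle. Its level was 5.13, 4.60, 5.01 and 4.97 in fasted mFoxO-TKO muscle and 4.63, 3.93, 3.97 and 4.04 in fed mFoxO-TKO muscle. It was 4.97, 4.87, 4.404 and 4.63 in fasted WT muscle and 4.51, 4.00, 3.43 and 3.41 in fed WT muscle. In each genotype the fasted values were mostly above the fed ones, and in both the groups overlapped through fed replicate 1, which was the highest of its group. Fasting changed Bdh1 by 0.88 ± 0.24 in WT muscle (1.84-fold, adjusted p = 0.0158) and by 0.78 ± 0.24 in mFoxO-TKO muscle (1.72-fold, adjusted p = 0.0572, not passed). The difference between these changes, mFoxO-TKO minus WT, was -0.10 ± 0.34 (95% interval -0.82 to 0.62, adjusted p = 0.967). Genotype differences of 0.21 ± 0.24 in fasted mice (adjusted p = 0.686) and 0.31 ± 0.24 in fed mice (adjusted p = 0.880) did not pass.

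The pass of Bdh1 in WT muscle depended on single arrays and on the slide. It was lost without fasted WT replicate 1 (0.80, adjusted p = 0.0503), without fed WT replicate 3 (0.74, adjusted p = 0.0576) and without fed WT replicate 4 (0.74, adjusted p = 0.0596). With slide as a block the change was 0.78 in mFoxO-TKO muscle (adjusted p = 0.0233) and 0.88 in WT muscle (adjusted p = 0.00579), so both passed. Within slide 1 alone it was 0.58 in mFoxO-TKO muscle (adjusted p = 0.459) and 0.66 in WT muscle (adjusted p = 0.296). Within slide 2 alone it was 0.98 in mFoxO-TKO muscle (adjusted p = 0.0111) and 1.098 in WT muscle (adjusted p = 0.00273).

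Bdh1 had 3 probes, all higher in fasted muscle by their means. Probe A_55_P2181753 changed by 0.85 ± 0.29 in mFoxO-TKO muscle (adjusted p = 0.0869) and by 1.097 ± 0.29 in WT muscle (adjusted p = 0.0132). Its fed WT values of 3.36, 2.73, 1.64 and 2.17 spread widely, and 17 bright spots within 5 rows and columns of it were also low on fed WT replicate 3, by a median of 0.75 below their group means where the whole array was 0.09 below. Those neighbours were also low on fasted WT replicate 3, by 1.16 where the array was 0.16 below, and their part in this probe's change was not tested. The dimmest probe, A_52_P468343, changed by 0.88 ± 0.25 in mFoxO-TKO muscle (adjusted p = 0.0443) and by 0.64 ± 0.25 in WT muscle (adjusted p = 0.0892). On fasted mFoxO-TKO replicate 1, where this probe was highest, 18 bright neighbours were 0.71 above their group means and the whole array 0.33 above. The genotype in which a probe passed thus differed between probes, with sizes between 0.64 and 1.097.

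**Figure D2:**
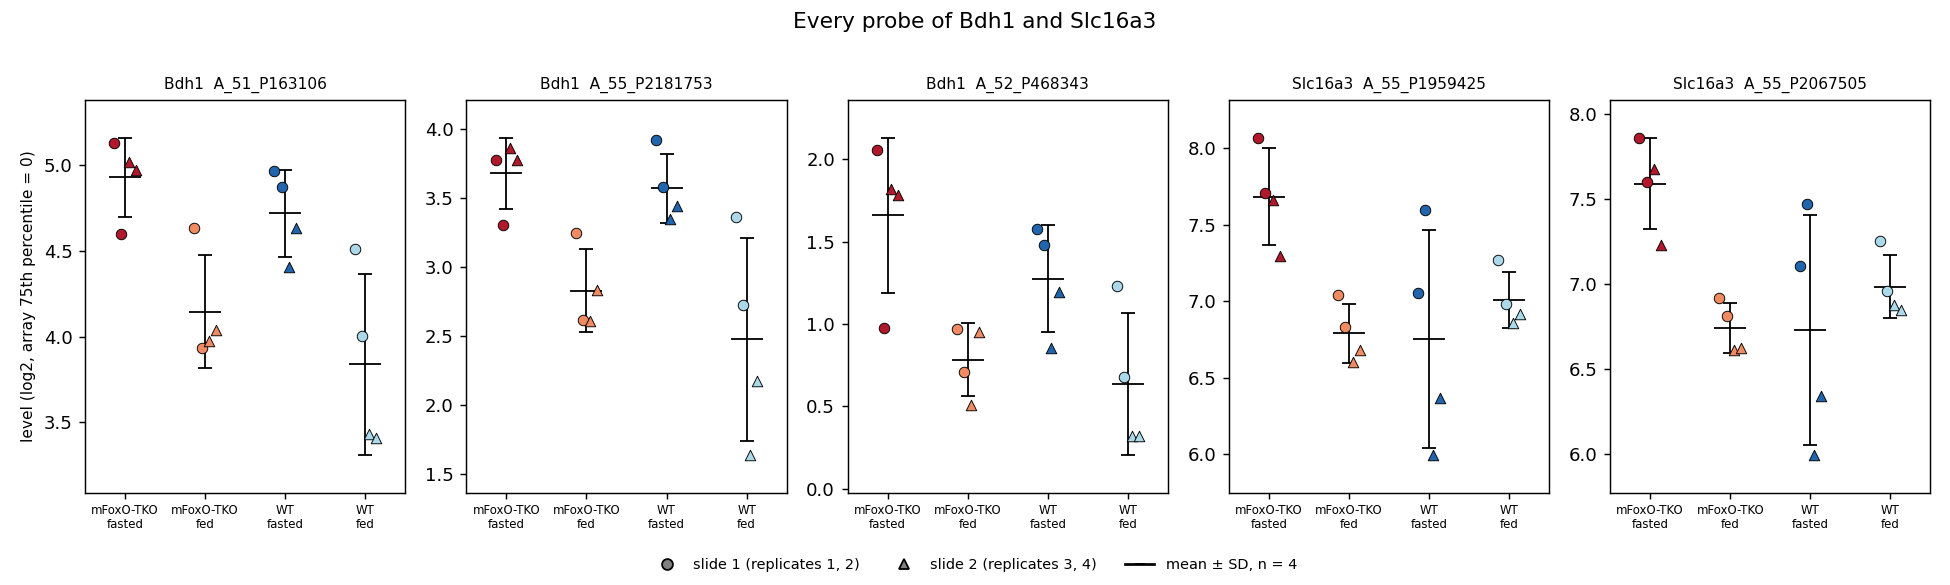
Level (log2 signal relative to the array's 75th percentile) of the 3 probes of Bdh1 and the 2 probes of Slc16a3 on each array, drawn as in the plot of all members, each panel with its own vertical range. The probes of Slc16a3 had nearly the same pattern, with group means of 7.68 and 7.59 in fasted mFoxO-TKO muscle and 6.75 and 6.73 in fasted WT muscle, whereas the Bdh1 probes differed in the spread of the fed WT arrays.

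Oxct1, which carries out the step that commits acetoacetate to oxidation, passed in no comparison. Its level was 6.85, 6.49, 6.42 and 6.24 in fasted mFoxO-TKO muscle, 7.17, 6.64, 6.62 and 6.35 in fed mFoxO-TKO muscle, 6.90, 7.14, 6.54 and 6.60 in fasted WT muscle and 7.11, 6.88, 6.80 and 6.64 in fed WT muscle. All groups overlapped. The fasting change was -0.20 in mFoxO-TKO muscle (95% interval -0.61 to 0.22, adjusted p = 0.616) and -0.07 in WT muscle (-0.48 to 0.35, adjusted p = 0.868). In fasted mice the genotypes differed by -0.30 (-0.71 to 0.12, adjusted p = 0.420). Under 30 alternatives run for each of the 5 comparisons Oxct1 passed in none.

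Acat1, the thiolase of the last step, had levels of 5.25, 5.14, 5.02 and 4.87 in fasted mFoxO-TKO muscle against 5.21, 4.69, 4.49 and 4.37 in fed mFoxO-TKO muscle. It had 5.34, 5.30, 4.94 and 4.89 in fasted WT muscle against 4.96, 4.998, 4.62 and 4.55 in fed WT muscle. The groups overlapped, and in each group both slide 2 arrays were lower than both slide 1 arrays. The fasting change was 0.38 ± 0.19 in mFoxO-TKO muscle (adjusted p = 0.247) and 0.33 ± 0.19 in WT muscle (adjusted p = 0.240), and neither passed. With slide as a block the sizes were the same and both passed, with an adjusted p of 0.0355 in mFoxO-TKO and 0.0368 in WT muscle. The genotypes differed by -0.04 in fasted mice (95% interval -0.44 to 0.35) and by -0.09 in fed mice (-0.49 to 0.30).

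Slc16a1, the carrier known for uptake, was read by a dim probe and passed in no comparison. Its lowest and highest levels were -2.28 and -0.85 in fasted mFoxO-TKO muscle, -2.28 and -1.68 in fed mFoxO-TKO muscle, -2.58 and -1.48 in fasted WT muscle and -2.29 and -1.86 in fed WT muscle. The highest value came from the fasted mFoxO-TKO array that stood apart. Fasting differences were 0.29 in mFoxO-TKO muscle (95% interval -0.34 to 0.92) and 0.08 in WT muscle (-0.55 to 0.71), and these intervals leave room for changes of over 0.5 in either genotype.

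Slc16a3, the carrier known for lactate export, was highest in fasted mFoxO-TKO muscle. Its level was 8.07, 7.71, 7.66 and 7.29 there, against 7.04, 6.83, 6.61 and 6.68 in fed mFoxO-TKO muscle. It was 7.05, 7.60, 5.998 and 6.37 in fasted WT muscle, against 7.27, 6.98, 6.86 and 6.92 in fed WT muscle. The fasted mFoxO-TKO arrays overlapped neither fed group, but fasted WT replicate 2 lay above the lowest of them. The fasted WT arrays divided by slide, with both slide 1 arrays above both slide 2 arrays and an SD of 0.71, against SDs of 0.18 to 0.32 in the other groups.

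In fasted mice, Slc16a3 was higher in mFoxO-TKO than in WT muscle by 0.93 ± 0.27 (1.90-fold, adjusted p = 0.0447), and its second probe, A_55_P2067505, by 0.86 ± 0.26 (adjusted p = 0.0462). In fed mice the difference was -0.21 ± 0.27 (adjusted p = 0.989). The fasting change was 0.89 ± 0.27 in mFoxO-TKO muscle (1.85-fold, adjusted p = 0.0574, not passed) and -0.25 ± 0.27 in WT muscle (adjusted p = 0.596). The difference between those changes was 1.14 ± 0.39 (95% interval 0.32 to 1.97) and did not pass over all genes (unadjusted p = 0.00979, adjusted p = 0.230).

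The pass of Slc16a3 in fasted mice was marginal. It was lost when any of 12 of the 16 arrays was left out, and kept without fasted mFoxO-TKO replicate 4, fed mFoxO-TKO replicate 1, and fasted WT replicates 1 and 2, with differences between 0.68 and 1.21 and adjusted p between 0.00421 and 0.131. It was also lost with the array median as the scaling (adjusted p = 0.0660) and with no filter on dim probes (adjusted p = 0.112). With slide as a block it passed (adjusted p = 0.00620), as did the fasting change in mFoxO-TKO muscle (adjusted p = 0.00974) and the difference between fasting changes (adjusted p = 0.0484). Within slide 1 the difference between genotypes in fasted mice was 0.56 (adjusted p = 0.359), and within slide 2 it was 1.29 (adjusted p = 0.0122). The fasting change in WT muscle had opposite signs on the slides, 0.20 on slide 1 (adjusted p = 0.734) and -0.70 on slide 2 (adjusted p = 0.0370). In mFoxO-TKO muscle it was 0.95 on slide 1 (adjusted p = 0.177) and 0.83 on slide 2 (adjusted p = 0.0453).

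Bsg, the escort of both carriers, had its highest values in the same group as Slc16a3. Its level was 5.80, 5.52, 5.50 and 5.46 in fasted mFoxO-TKO muscle and 5.33, 5.19, 5.05 and 5.19 in fed mFoxO-TKO muscle, which did not overlap. It was 5.44, 5.46, 5.09 and 5.20 in fasted WT muscle and 5.45, 5.15, 5.44 and 5.34 in fed WT muscle. The lowest fasted mFoxO-TKO array and the highest fasted WT array were both at 5.46. The fasting change was 0.38 ± 0.13 in mFoxO-TKO muscle (1.30-fold, adjusted p = 0.0902) and -0.05 ± 0.13 in WT muscle (adjusted p = 0.863). In fasted mice the genotypes differed by 0.27 ± 0.13 (adjusted p = 0.245), and the difference between the fasting changes was 0.43 ± 0.19 (adjusted p = 0.426). None of these passed. With slide as a block the change in mFoxO-TKO muscle was the same size and passed (adjusted p = 0.0359), and it was 0.40 within slide 1 (adjusted p = 0.462) and 0.36 within slide 2 (adjusted p = 0.0914).

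Groups that did not overlap were counted for the members in each comparison. Between fasted and fed mFoxO-TKO muscle they were 2 of 6, Slc16a3 and Bsg, against 13.7% of all genes, and between fasted mFoxO-TKO and fasted WT muscle 1 of 6, Bsg, against 12.8%. Between fasted and fed WT muscle none of the 6 separated, against 28.1%, and between fed mFoxO-TKO and fed WT muscle none did, against 9.15%. In the order of group means, the fasted mFoxO-TKO group stood above its next neighbour, fed WT, without overlap for Slc16a3 and Bsg alone. The margins were narrow. The lowest fasted mFoxO-TKO and highest fed WT values were 7.294 and 7.270 for Slc16a3, and 5.463 and 5.454 for Bsg. Every other pair of neighbours overlapped for each member. The share of all genes with such a separation was not counted.

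**Figure D3:**
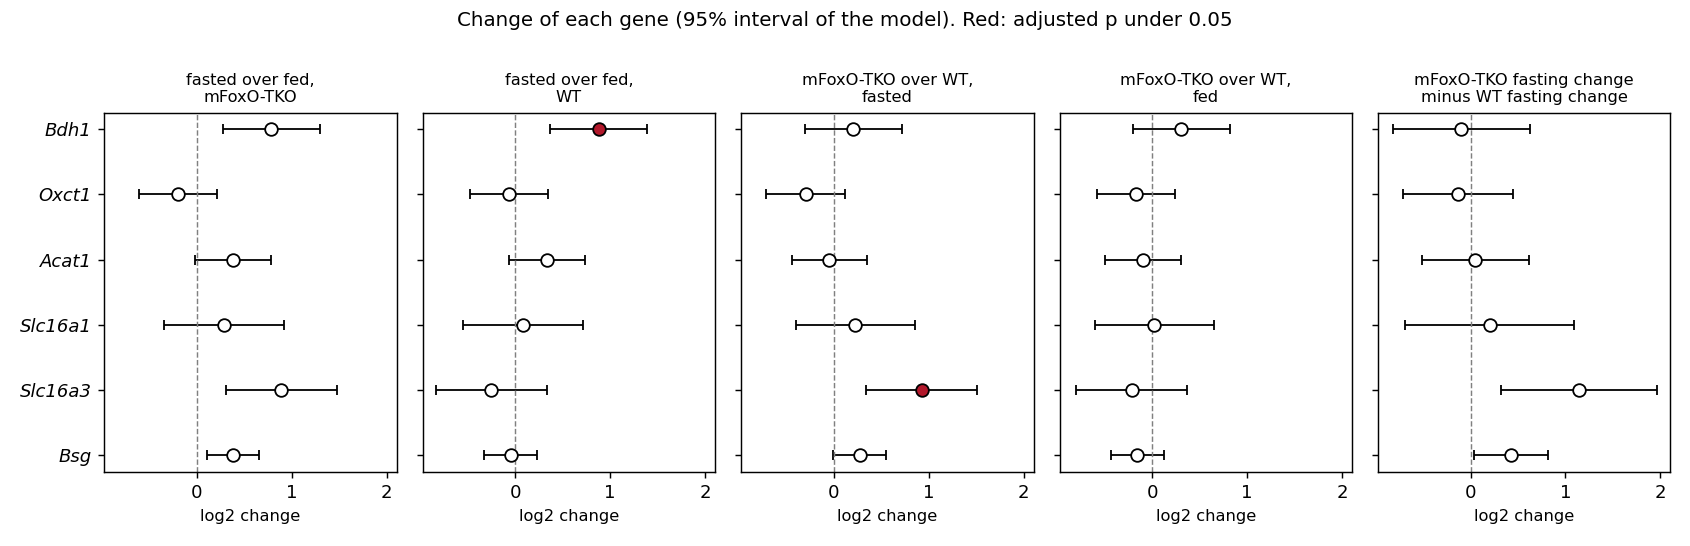
Log2 change of each of the 6 genes in the 5 comparisons, with the 95% interval of the model, red where the adjusted p was under 0.05. Red points appear only for Bdh1 in WT fasting (0.88) and for Slc16a3 between genotypes in fasted mice (0.93), and the fasting change of Slc16a3 in mFoxO-TKO muscle is as large (0.89) but open.

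Markers of fibre types and other cells were read beside these results. Summed linear signal of 8 fast fibre markers (multiples of the array's 75th percentile) ran from 2500 to 4400 in fasted mFoxO-TKO, 2420 to 3540 in fed mFoxO-TKO, 2680 to 3870 in fasted WT and 2520 to 3340 in fed WT muscle. For 8 slow fibre markers the ranges were 723 to 1310, 571 to 989, 591 to 790 and 617 to 787 in the same order of groups. In limma none of the 24 muscle fibre, fast fibre and slow fibre markers passed in any comparison (1.02% to 20.8% of all genes). At an unadjusted p under 0.05 there were 2 for fasting in mFoxO-TKO muscle (4711 of the 21247 genes). Between genotypes in fasted mice there were 3 (4603 genes), and in the other comparisons 0. All genes gave 6824 for fasting in WT muscle, 2023 between genotypes in fed mice and 2206 for the difference between fasting changes. Endothelial markers, whose cells also carry monocarboxylate transporters, summed to 67.3 to 100 in fasted mFoxO-TKO and 57.5 to 92.0 in fasted WT muscle. In WT fasting 1 of 8 passed (Kdr, the VEGF receptor, -0.97), where 9.59% of all genes passed as lower. Erythroid markers, of cells rich in Slc16a1 and Bsg, summed to 115 to 211 in fasted mFoxO-TKO and 112 to 185 in fasted WT muscle. In fed muscle they summed to 90.5 to 148 in mFoxO-TKO and 110 to 148 in WT mice. None of 4 tested passed in the limma model. At an unadjusted p under 0.05 there was 1, for fasting in mFoxO-TKO muscle (4711 of the 21247 genes). These sums overlapped between groups, and their part in the results was not tested.

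Fibroblast markers moved with fasting in both genotypes, the direction opposite to that of Bdh1. Their sums over 7 genes were 326 to 413 in fasted and 480 to 646 in fed mFoxO-TKO muscle, and 359 to 554 in fasted and 592 to 628 in fed WT muscle. In mFoxO-TKO muscle 2 of 7 fell (4.24% of all genes) and in WT muscle 4 of 7 (9.59%). Lum (lumican, a matrix proteoglycan) fell by 2.18 in mFoxO-TKO and by 2.59 in WT muscle. Smooth muscle markers summed to 46.1 to 67.0 in fasted and 66.7 to 97.3 in fed mFoxO-TKO muscle, and to 31.1 to 56.2 in fasted and 71.9 to 89.8 in fed WT muscle. Of 5 smooth muscle markers 1 passed, Smtn (smoothelin). It changed by -1.65 in WT fasting, where 9.59% of all genes passed as lower. Between genotypes in fasted mice it differed by 0.86, where 4.41% of all genes passed as higher. The median fasting change of the 5 was 0.05 in mFoxO-TKO and -0.23 in WT muscle. The part of these markers in the member results was not tested.

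Other genes of ketone and lactate handling were taken as lists, of which 49 of 56 genes were tested. Among them 4 of the 49 passed with fasting in mFoxO-TKO muscle (8.53% of all genes) and 8 in WT muscle (20.8% of all genes). Between genotypes in fasted mice 4 of the 49 differed (9.38% of all genes). In fed mice the limma model called none of the 49 between genotypes (1.02% of all genes). At an unadjusted p under 0.05 there were 3 of the 49 (2023 of the 21247 genes). The median fasting change of the 6 genes of ketone body synthesis was -0.32 in mFoxO-TKO and -0.06 in WT muscle, against 0.04 and 0.02 for all genes. In each genotype 1 of these 6 passed with fasting, as higher, and none passed as lower. Hmgcll1, a gene of this list, was not well above background on most fasted arrays.

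Aacs, the cytosolic synthetase that returns acetoacetate to lipid synthesis, was the gene of the list taken as ketone body synthesis that differed between genotypes in fasted mice, although it consumes acetoacetate. Its level was -0.11, 0.44, 0.22 and 0.49 in fasted mFoxO-TKO muscle against 0.86, 1.23, 1.19 and 1.83 in fasted WT muscle, with no overlap. The difference was -1.02 ± 0.21 (adjusted p = 0.00505). In fed mice it was -0.18 ± 0.21 (adjusted p = 0.975), and the difference between the fasting changes did not pass (-0.83 ± 0.29, adjusted p = 0.260).

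Of 12 genes of short-chain acyl-CoA and acetyl-CoA metabolism that were tested, 1 rose with fasting in each genotype. Of all genes, 4.29% passed as higher in mFoxO-TKO and 11.2% in WT muscle. In WT muscle the gene of this list was Acss1, the mitochondrial acetyl-CoA synthetase that activates acetate. Acss1 was at 3.06, 5.02, 5.66 and 5.54 in fasted mFoxO-TKO muscle and 4.70, 3.67, 4.13 and 4.00 in fed mFoxO-TKO muscle. It was at 7.18, 6.11, 6.65 and 6.97 in fasted WT muscle and 4.13, 4.16, 3.81 and 4.04 in fed WT muscle. Fasted mFoxO-TKO replicate 1, the array that stood apart, was the lowest of all 16 and the other fasted mFoxO-TKO arrays lay between the fed and fasted WT arrays. Acss1 changed with fasting by 0.70 ± 0.44 in mFoxO-TKO muscle (adjusted p = 0.394), but by 1.28 ± 0.27 without that array (adjusted p = 0.00722, passed), and by 2.69 ± 0.44 in WT muscle (6.46-fold, adjusted p = 4.76e-04). In fasted mice it was lower in mFoxO-TKO muscle, by -1.91 ± 0.44 (adjusted p = 0.0110), and the difference between the fasting changes, -1.995 ± 0.62, did not pass (adjusted p = 0.167). Without that array these values were -1.32 ± 0.27 (adjusted p = 0.00477) and -1.41 ± 0.36 (adjusted p = 0.0627).

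In mFoxO-TKO muscle the gene of that list that rose was Crat, carnitine acetyltransferase, which exchanges acetyl groups between coenzyme A and carnitine. It changed by 0.63 ± 0.17 in mFoxO-TKO muscle (adjusted p = 0.0271) and by 0.45 in WT muscle (adjusted p = 0.0705). The difference between the fasting changes passed for none of the 12 genes of the list, Crat included (1.15% of all genes). The pass in mFoxO-TKO muscle was lost in 8 of 30 alternatives, among them without any 1 of fed replicates 2, 3 and 4 and fasted replicates 3 and 4 of that genotype (adjusted p between 0.0622 and 0.0911). With slide as a block, or without fasted mFoxO-TKO replicate 1, 3 genes of the list rose in mFoxO-TKO and 2 in WT muscle. The median change of the list was 0.27 in mFoxO-TKO and 0.14 in WT muscle.

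Among 10 other SLC16 transporters that were tested, none passed with fasting in mFoxO-TKO muscle (8.53% of all genes). In WT muscle 2 fell (9.59% of all genes). At an unadjusted p under 0.05 in limma there were 3 in mFoxO-TKO (4711 of the 21247 genes) and 6 in WT muscle (6824 genes). The median changes were -0.35 and -0.50. Without fasted mFoxO-TKO replicate 1 the counts of genes that passed were 1 lower in mFoxO-TKO and 3 lower and 1 higher in WT muscle. Slc16a6 was at 2.70, 2.27, 2.88 and 2.24 in fasted mFoxO-TKO against 0.73, 1.42, 1.46 and 1.68 in fasted WT muscle on its brightest probe. On this probe it differed by 1.20 ± 0.20 between genotypes in fasted mice (adjusted p = 0.00113) and by -0.84 ± 0.20 with fasting in WT muscle (adjusted p = 0.00729). Its second probe gave 0.46 (adjusted p = 0.753) and -0.12 (adjusted p = 0.930), so the probes disagree and the gene's call is uncertain. Slc16a7 (MCT2), another carrier of lactate and pyruvate, had differences of -0.46 in mFoxO-TKO muscle (adjusted p = 0.4998) and 0.05 in WT muscle (adjusted p = 0.948).

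**Figure D4:**
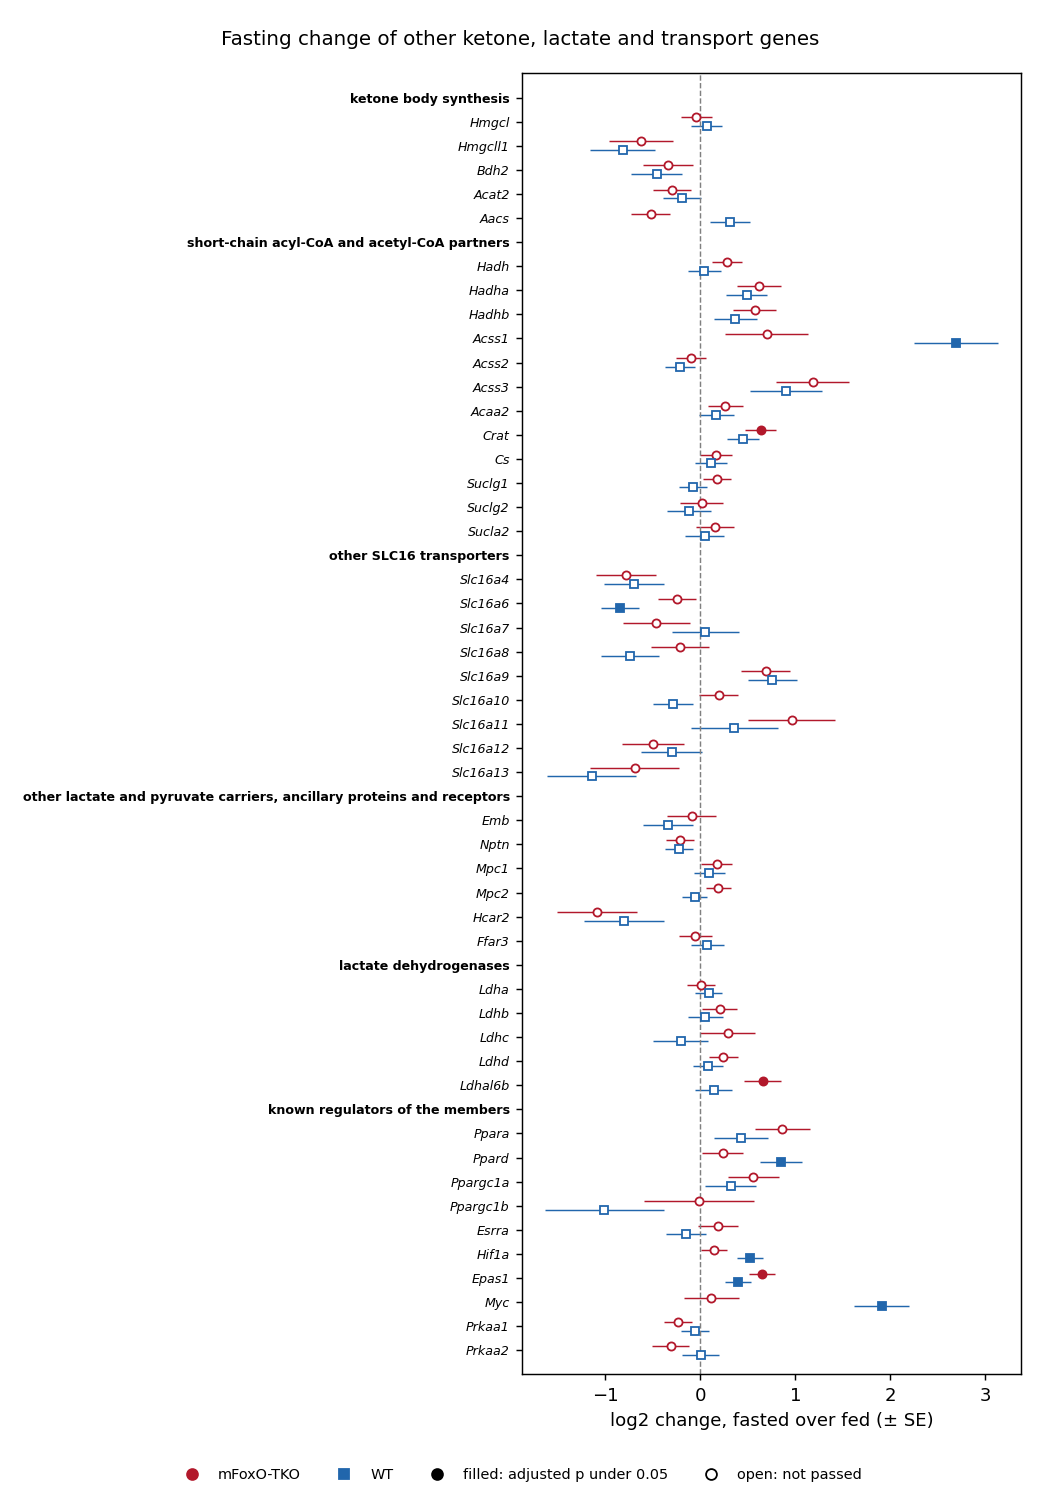
Fasting change (log2, ± SE) of 47 of the 49 other genes tested, by list, in mFoxO-TKO (red circles) and WT muscle (blue squares), filled where the adjusted p was under 0.05. Acss1 and Myc are filled for WT alone, and Crat for mFoxO-TKO alone. The difference between the fasting changes passed for Myc but not for Acss1 or Crat.

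The other lactate and pyruvate carriers, ancillary proteins and receptors passed in 0 of 6 tested genes in every comparison of the limma model. At an unadjusted p under 0.05 there was 1, Hcar2, for fasting in mFoxO-TKO muscle (4711 of the 21247 genes). Between genotypes in fasted mice there was 1, Emb (4603 genes), and both were named after their values were seen. Hcar2 was not well above background on most fasted arrays. Emb (embigin), the alternative escort of monocarboxylate carriers, differed with fasting by -0.09 in mFoxO-TKO (adjusted p = 0.884) and -0.34 in WT muscle (adjusted p = 0.422). The subunits of the mitochondrial pyruvate carrier differed by 0.17 (Mpc1) and 0.19 (Mpc2) in mFoxO-TKO muscle and by 0.09 and -0.06 in WT muscle. Of 5 lactate dehydrogenase genes 1 passed, Ldhal6b in mFoxO-TKO fasting (0.66 ± 0.19, adjusted p = 0.0460), where 8.53% of all genes did. It was dim, well above background on 3 of 4 arrays in each mFoxO-TKO group, and its pass was lost in 20 of 28 alternatives, the one without fasted mFoxO-TKO replicate 1 among them (adjusted p = 0.0912). Ldha and Ldhb, the main subunits, differed by 0.01 and 0.21 in mFoxO-TKO muscle and by 0.09 and 0.05 in WT muscle.

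Of 10 genes known to regulate the members, 1 rose with fasting in mFoxO-TKO muscle (4.29% of all genes) and 4 in WT muscle (11.2%). Ppard is a lipid-sensing nuclear receptor of oxidative muscle. It was at 4.08, 3.44, 3.24 and 3.35 in fasted and 2.89, 2.83, 2.40 and 2.59 in fed WT muscle. Its change was 0.85 ± 0.22 (adjusted p = 0.0107), against 0.23 ± 0.22 in mFoxO-TKO muscle, where it did not pass. The difference between the fasting changes did not pass for Ppard, and among the 10 regulators it passed for Myc alone (1.15% of all genes). Hif1a, whose protein drives glycolytic genes including Slc16a3 in low oxygen, changed by 0.52 ± 0.14 in WT muscle (adjusted p = 0.0133), a pass lost in 3 of 30 alternatives, among them the array median as the scaling (adjusted p = 0.101). Epas1, its relative, changed by 0.65 ± 0.14 in mFoxO-TKO (adjusted p = 0.00837) and by 0.40 ± 0.14 in WT muscle (adjusted p = 0.0487), but its second probe gave 0.17 in mFoxO-TKO muscle (adjusted p = 0.668).

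Myc, a growth factor-responsive transcription factor, was at 0.51, -0.45, -0.21 and -0.59 in fasted and 0.30, -0.32, -0.01 and -1.16 in fed mFoxO-TKO muscle. It was at 0.86, 0.87, 1.24 and 0.57 in fasted and -0.78, -1.15, -0.89 and -1.28 in fed WT muscle. The mFoxO-TKO groups overlapped and the WT groups did not. In fasted mice the genotypes differed by -1.07 ± 0.29 (adjusted p = 0.0280), a pass kept in 21 of 30 alternatives (adjusted p up to 0.313), and the difference between the fasting changes was -1.79 ± 0.41 (adjusted p = 0.0468). That difference passed in 10 of 30 alternatives, with sizes between -2.08 and -1.50. Without fasted mFoxO-TKO replicate 1, 3 regulators were lower in fasted mFoxO-TKO than in fasted WT muscle, where 1 was with all arrays and none was without fasted WT replicate 2. The model with slide as a block gave 3 lower and 1 higher.

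The genes whose levels followed those of a passing member most closely over the 16 arrays were picked by Pearson correlation among 12133 genes with an ordinary symbol and a value on every array. For Bdh1 they were Cxcl13 (r = 0.946), a chemokine of B cell follicles, Larp6 (r = 0.926), an RNA-binding protein, and St3gal5 (r = 0.920), the synthase of ganglioside GM3. For Slc16a3 they were Klhdc3 (r = 0.935), Pptc7 (r = 0.932), a mitochondrial phosphatase, and Dok7 (r = 0.920), an adaptor of the neuromuscular junction. The 16 points share the group structure, the slides and the scaling of each array, so these values only describe likeness.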

How the data were processed

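Per the labels, total RNA of 16 quadriceps muscles was labelled with Cy3 and hybridised to 1-colour Agilent mouse arrays. Feature Extraction is given as version 9.5 in the submitters' processing notes and as 11.0.1.1 per the file headers. The intensities used were the deposited processed signals, background-subtracted and detrended within an array per the file headers and not scaled between arrays. The deposited marks of 0 or 1 state, per the file headers, whether a spot was uneven, saturated or well above background. The authors' value table of 18324 rows holds scores that equal the processed signal times 1 factor per array within 2%, with a 75th percentile of 100 on each array, no logarithm and medians from 22 to 25. It served as an alternative, as log2(score + 1).

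Of 59305 spots other than controls, those with an outlier mark were left out (0.143% to 3.28% of an array), repeats were averaged to 55681 probes, log2 was taken and the 75th percentile of the array was subtracted. Probes were named through their RefSeq accession, without versions, and a RefSeq gene table (28325 had a symbol). The file headers name build mm9 and the table GRCm38.p6, so no probe coordinates are given. Probes not well above background on all arrays of some group were dropped, and the brightest kept probe stood for its gene, the others being alternatives. Genes with under 2 values in a group were not tested. lmFit and eBayes of limma 3.58.1 (R 4.3.3, with 12 residual and 3.25 prior degrees of freedom) fitted 4 group means to 21247 genes. The Benjamini-Hochberg adjustment ran over all of them, and errors after ± are SEs of the model. The p-values describe the spread between arrays of these mice, which in the main model includes any difference between the slides. The number of arrays limits the precision of the p-values. The fit was tested on simulated data.

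Members and lists were chosen with earlier results of these data known. Genes named beside the members were, in each list and comparison, up to 3 that passed with the largest change, and the 3 genes most correlated with each passing member. Other genes named were chosen after their values were seen, such as Mpc1 or Emb. Some genes that the rule chose are not reported here.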

Additional observations from a re-analysis of the deposited data

Results flagged for a closer look

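Single arrays stood far from the other 3 of their group in 4 of 80 groups of values examined, where chance gives about 1 in 20. The brightest Bdh1 probe (A_51_P163106) was at 4.63 on fed mFoxO-TKO replicate 1, above the rest of its group. Bdh1 probe A_55_P2181753 was at 3.30 on fasted mFoxO-TKO replicate 2, below the rest of its group. Epas1 was at 7.02 on fasted WT replicate 1, and Slc16a6 at 2.43 on fed WT replicate 4, each above the rest of its group. The fasting change of Myc differed between the genotypes by -1.79 (mFoxO-TKO minus WT) in the test of that difference itself.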

How the results depend on the processing

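No called direction turned under any alternative. Counts of all genes that passed moved as follows. For fasting in mFoxO-TKO muscle (1813) they were 1183 with normexp on the median signals, 2943 with the 75th percentile taken over probes well above background on all arrays, 992 with no filter on dim probes, 2797 with slide as a block, 127 on slide 1 alone and 3180 with the replicate block. For fasting in WT muscle (4422) slide 1 alone gave 876. Between genotypes in fasted mice (1994) they were 3390 with that percentile, 3026 with slide as a block, 427 on slide 1 alone and 3373 with the replicate block. Between genotypes in fed mice (217) they were 130 with normexp, 393 with that percentile, 109 with no filter, 422 with slide as a block, 33 on slide 2 alone, 418 with the replicate block and 367 in the authors' value table. For the difference between fasting changes (244) they were 610 with that percentile, 155 with median scaling, 79 with no filter, 424 with marked spots kept, 564 with slide as a block, 7 on slide 1 alone, 70 on slide 2 alone, 697 with the replicate block, 708 in the authors' value table and 468 with the 75th percentile over all spots, an alternative chosen after seeing the data. Leaving out 1 array at a time gave 1083 to 2111, 3443 to 5411, 1534 to 2300, 105 to 311 and 133 to 437 in the order of these comparisons.

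Of the 6 members, fasting in mFoxO-TKO muscle called 0, but 2 with normexp, with quantile normalization or with the filter of probes well above background on all 16 arrays, 3 with that percentile, on slide 2 alone, in the authors' value table or with the 75th percentile over all spots, 4 with slide as a block or the replicate block, and 1 with the mean of all probes. Fasting in WT muscle called 1, but 2 with slide as a block, on slide 2 alone or with the replicate block and 0 on slide 1 alone. Between genotypes in fasted mice 1 was called, but 2 with quantile normalization, with that percentile or in the authors' value table and 0 with median scaling, with no filter or on slide 1 alone. The difference between fasting changes called 0, but 1 with slide as a block and 2 in the authors' value table. Leaving out 1 array gave 0 to 1 in each of these. The cause of these shifts was not tested, except that fewer arrays enter a single slide. Taking that percentile moved the median of all genes for WT fasting to -0.11 from 0.02, and the share of passing genes that rose was 37.4% (40.5% in the authors' value table) against 53.9%. For fasting in mFoxO-TKO muscle that share was 63.8% with normexp against 50.3%. For genotypes in fasted mice the share was 59.9% against 47.0%, and for the difference between fasting changes it was 48.4% in the authors' value table against 36.9%. For single genes, results that passed kept their pass in 447 values and lost it in 96, and those that had not passed stayed so in 809 and gained a pass in 43. Replicate numbers were not taken as pairs in the main model, and the replicate block was an alternative. Deviations from group means correlated positively between all arrays of the same number. The ranges were 0.125 to 0.329, 0.055 to 0.392, 0.105 to 0.193 and 0.251 to 0.387 for numbers 1, 2, 3 and 4. Arrays of different numbers were not compared in this way, so these values cannot decide whether numbers are pairs. Each number also filled its own row of a slide.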

Other observations

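Some markers of other cells passed with fasting outside the groups described above. Of all genes, 4.29% passed as higher and 4.24% as lower in mFoxO-TKO fasting, and 11.2% and 9.59% in WT fasting. Between genotypes in fasted mice 4.41% of all genes passed as higher. Cidec, a lipid droplet protein of fat cells, changed by 1.41 ± 0.32 in mFoxO-TKO (adjusted p = 0.0130) and by 1.21 ± 0.32 in WT muscle (adjusted p = 0.0138). Retn (resistin), from the same list of 6 tested fat cell genes, changed by -1.14 ± 0.33 in mFoxO-TKO (adjusted p = 0.0408) and by -1.06 ± 0.33 in WT muscle (adjusted p = 0.0296). Of 6 tested macrophage genes, Adgre1 (F4/80) fell by 1.39 in mFoxO-TKO muscle (adjusted p = 0.0164) and Mrc1 (the mannose receptor) fell by 1.14 in WT muscle (adjusted p = 0.00487). Of 6 Schwann cell genes, Mbp (myelin basic protein) rose by 1.02 in WT muscle (adjusted p = 0.0146). Between genotypes in fasted mice Mrc1 was higher in mFoxO-TKO muscle by 0.86 ± 0.26 (adjusted p = 0.0455). Summed linear signals of the fat cell list were 201 to 250 in fasted and 188 to 255 in fed mFoxO-TKO muscle, and 99.4 to 313 in fasted and 206 to 261 in fed WT muscle. Those of the macrophage list were 11.1 to 25.7 in fasted and 19.2 to 40.6 in fed mFoxO-TKO muscle, and 12 to 15 in fasted and 13.4 to 22.5 in fed WT muscle. Fasted and fed sums overlapped in both genotypes for these lists.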
